A study of Mus musculus with 3 samples.

Results

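Transitional keratinocytes are described here as cells of mouse ear epidermis that carry the keratins of the basal layer and those of the spinous layer above it at the same time. A cell was a member when Krt5 and Krt14, the basal keratin pair, made up at least 0.5% of its UMIs and Krt1 and Krt10, the suprabasal pair, also made up at least 0.5%. UMIs are unique molecular identifiers, each standing for 1 captured transcript. Members further had Lor, a protein of the granular layer, under 1% of UMIs, and under 5 UMIs in all of the mitotic genes Ube2c, Cdc20, Ccnb1, Cenpa and Cenpf. The rule found 182 members among 5340 cells that passed filters of 500 or more genes and a mitochondrial UMI share of 10% or less. Basal cells, with Krt1 and Krt10 under 0.5%, numbered 2049, and spinous cells, with Krt5 and Krt14 under 0.5%, numbered 2094. The other 1015 cells were outside the 3 classes: 425 had Lor at 1% or more, 371 had 5 or more mitotic UMIs and 219 had both keratin pairs under 0.5%. The name transitional stands for this rule, and no order in time was measured.

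The cells came from untreated ear epidermis of C57BL/6N mice, an inbred strain, at 9 weeks of age, and all 3 libraries, replicates 1 to 3, belong to 1 group. The epidermis was lifted off with dispase, cells were released with trypsin and EDTA and frozen before capture in droplets, and 5' ends of transcripts were counted. Whether each replicate is a separate animal is not stated. With library as a block, p-values measure how far differences between classes vary from library to library, which may be technical. The libraries held 944, 2212 and 2184 cells after filtering, with medians of 14569.5, 9237.5 and 11282 UMIs per cell. Libraries shared 3, 4 and 9 cell barcodes in pairs, and no member had a shared barcode.

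Basal keratinocytes sit on the basement membrane, held by hemidesmosomes and integrins, and are the dividing cells of the epidermis. A cell that leaves this layer gives up those contacts, stops dividing, replaces Krt5 and Krt14 with Krt1 and Krt10, and strengthens its desmosomes, the junctions between keratinocytes. Notch signalling, in which ligands on one cell activate receptors on its neighbour, is known to promote this switch, and proteins of the cornified envelope and barrier lipids follow in higher layers.

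The members made up 3.18%, 2.89% and 4.03% of the filtered cells of replicates 1, 2 and 3, with a mean of 3.37% ± 0.591 (SD, n = 3 libraries). Exact 95% binomial intervals, which cover counting error only, ran from 2.15 to 4.51%, from 2.24 to 3.68% and from 3.24 to 4.94%. Their number was 30, 64 and 88 cells. Enzymatic release can favour some layers over others, so these shares describe the suspension.

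By the summed share of each pair the members lay in the lower range of both keratin programs. Krt1 alone went the other way. Scaled to total UMIs (CPM on plain totals), Krt1 was at 930, 651 and 874 in members of replicates 1 to 3. In spinous cells it was at 550, 446 and 437. Krt10 was lower in members, with means of 9441 and 16913 CPM in members and spinous cells. Krt5 and Krt14 together ran from 0.503 to 6.55% of a member's UMIs with a median of 1.00%, and Krt1 and Krt10 from 0.501 to 3.62% with a median of 0.900%. The basal pair made up a median of 53.3% of the 4 keratins, from 17.6 to 91.9%. The 29 members just inside the threshold, with Krt1 and Krt10 from 0.5 to 0.6%, had a median of 1.10% for the basal pair, against 1.36% in the 44 basal cells just outside, at 0.4 to 0.5%. The 28 members with the basal pair from 0.5 to 0.6% had a median of 0.916% for Krt1 and Krt10, against 0.850% in the 31 spinous cells at 0.4 to 0.5%. Cells lay on both sides of each threshold without a gap. The members were chosen by these measured UMI shares, so the shares are a description and are tested nowhere.

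**Figure D1:**
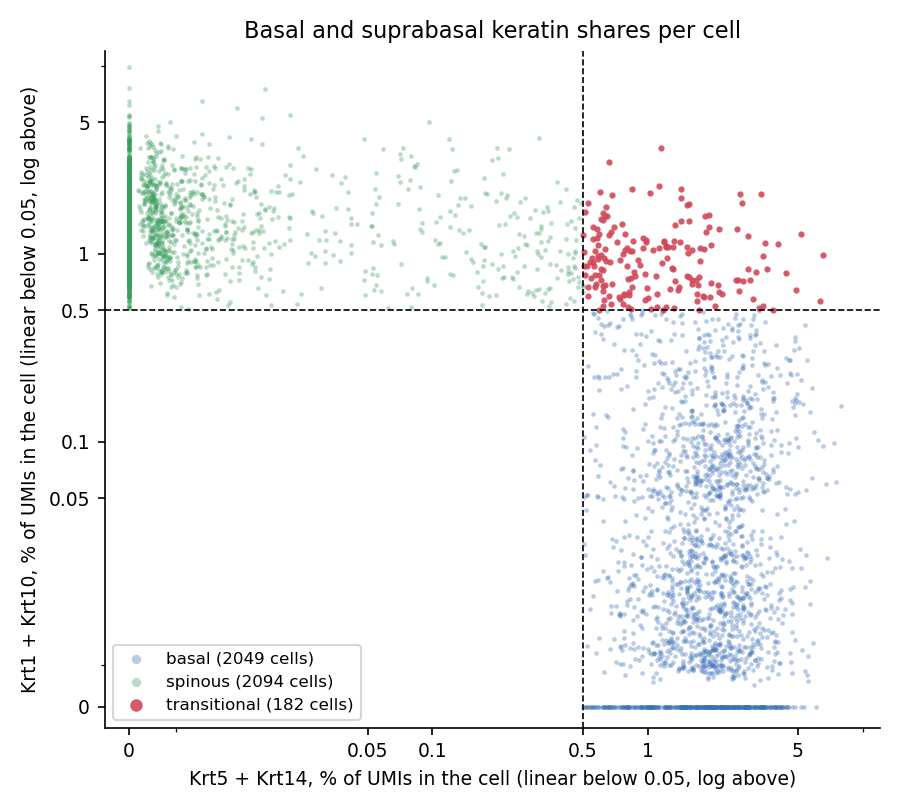
Share of UMIs from Krt5 and Krt14 (horizontal) and from Krt1 and Krt10 (vertical) in each basal, transitional and spinous cell, in percent, on axes that are linear below 0.05 and logarithmic above; dashed lines mark 0.5%. The 182 transitional cells fill the upper right corner, next to the cells of both other classes and with no gap at the lines.

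The markers named with the label were met in part. Krt14 and Krt10 were high by the rule. Clca3a2 was higher in the members than in both other classes in each library. Plau, which encodes the urokinase plasminogen activator, was at 38.4, 20.7 and 30.1 CPM in the members of replicates 1 to 3, above the basal 14.6, 10.3 and 14.4 and overlapping the spinous 22.9, 25.9 and 28.6. CPM here is counts scaled to a common library size by the method of the test (TMM, trimmed mean of M values). Pyy, the gut hormone peptide YY, went against the label in its summed level. Its level was 28.8, 202 and 42.0 CPM in members, 26.0, 271 and 183 in basal cells and 10.98, 64.7 and 42.6 in spinous cells, so it was highest in basal cells in 2 of 3 libraries. In the members 5 cells held 51.3% of the 195 Pyy UMIs, and 1 cell held 44. The share of cells with the gene at levelled depth, given below with that of Clca3a2, went the other way. It was highest in members in each library for Pyy and for Plau. These 3 genes were picked as markers with results of these data known, so their levels are a description. They stayed in the table that was fitted, and counts over lists or over all genes include them, but no test of them is read as a result.

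Values that bear on doublets and free RNA were measured in the members. Median UMIs per cell were 12843.5, 9034.5 and 10273 in members, between 11386.5, 7166 and 8035.5 in basal cells and 21043, 13588 and 15133 in spinous cells. A droplet with a median basal and a median spinous cell would hold the sum of both medians, and 17 of 182 members reached it (9.34%), against 3 of 2049 basal cells (0.146%) and 257 of 2094 spinous cells (12.3%). At or under the basal median of their library were 67 members. Scrublet, which scores cells against simulated doublets, marked 10 of 182 members (5.49%, exact 95% interval 2.67 to 9.87), against 2 of 2049 basal cells (0.0976%) and 15 of 2094 spinous cells (0.716%). The intervals of basal (0.0118 to 0.352%) and spinous cells (0.401 to 1.18%) lay lower, but all pool cells over libraries and cover counting error only. Marked in replicates 1 to 3 were 2 of 30, 3 of 64 and 5 of 88 members. The counts were 1 of 390, 0 of 843 and 1 of 816 basal and 7 of 359, 6 of 915 and 2 of 820 spinous cells. Members were chosen for carrying both keratin pairs, as a simulated basal and spinous doublet does, so this share is not independent of the rule. The part of doublets in the results was not tested beyond leaving out marked and large cells. For free RNA, 0 of 45 cells of Langerhans type, taken by Cd74 at 0.5% or more of UMIs, reached either keratin threshold. Taking a count of 0 to allow 3, the share could be up to 6.67%, and the exact 95% upper limit is 7.87%. Their highest share was 0.499% for Krt5 and Krt14 and 0.403% for Krt1 and Krt10, and their median of 5312 UMIs was below that of the members, 10280. Among 20 cells of T cell type 1 reached the basal threshold and 0 the suprabasal one. Of the 425 cells with high Lor, 10 reached the basal threshold.

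**Figure D2:**
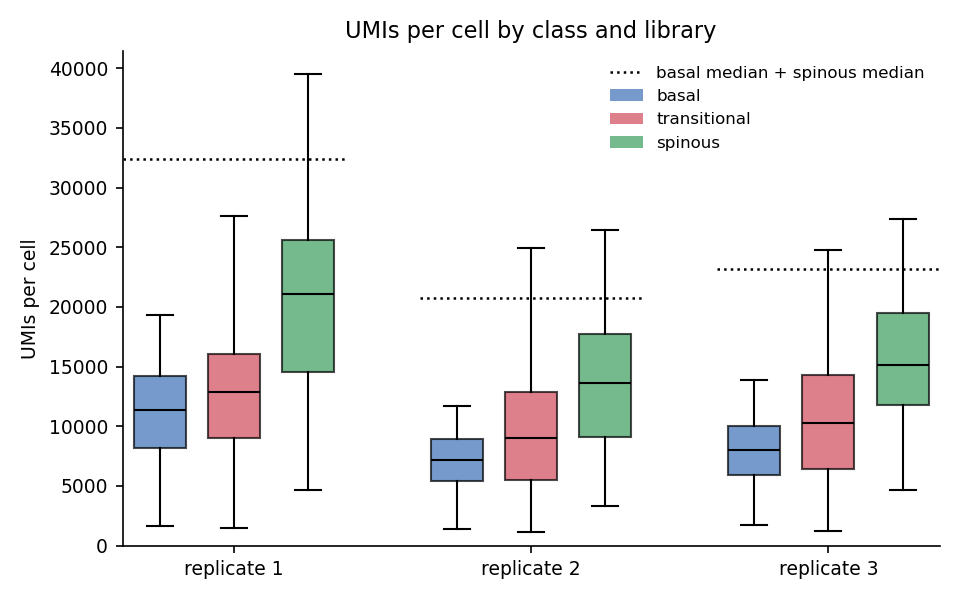
UMIs per cell (linear axis) for basal, transitional and spinous cells of each library; boxes span the quartiles with the median as a line, whiskers the 5th to 95th percentile, and dotted lines the sum of the basal and spinous medians. The transitional boxes sit between the other 2 in every library, with medians of 12843.5, 9034.5 and 10273.

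Gene levels were compared after summing UMIs per library and class, with the 10 rule genes left out. The cells were divided by counts of the same cells, so genes that follow the keratins had to differ, and the counts describe how far rather than whether. Of 10972 genes tested, 2134 (19.4%) differed between members and basal cells, 1201 higher (10.9%) and 933 lower (8.5%) in members, by edgeR's quasi-likelihood test with Benjamini-Hochberg adjustment at 0.05. Against spinous cells 3752 (34.2%) differed, 1471 higher (13.4%) and 2281 lower (20.8%). Counts of called genes in the lists below are to be read against these shares. With plain total UMIs in place of TMM the spinous split turned to 3036 higher and 1157 lower, and the median log2 difference of all genes moved from -0.04 to 0.31. Differences from spinous cells that do not far exceed this shift depend on the scaling. The median over all genes was -0.02 against basal cells. Without replicate 3, which holds 88 of the 182 members, 1047 genes differed from basal and 2414 from spinous cells.

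Among called genes with a mean of 50 CPM or more in either class compared, those furthest above basal cells by log2 difference were Dkkl1, related to the Dickkopf family, Slurp2, a small secreted Ly6 family protein, Skint9 of a family of epidermal immunoglobulin-like proteins, Serpinb12, a serine protease inhibitor, and Orm1, an acute phase plasma protein. Dkkl1 was at 16.8, 69.4 and 73.1 CPM in members against 0.859, 0.482 and 1.69 in basal cells and 350, 413 and 369 in spinous cells. No library of one class overlapped another class, and the log2 difference from basal cells was 5.79 ± 0.35 (SE, adjusted p = 1.18e-11 by edgeR). Slurp2 had a log2 difference of 5.59 ± 0.35, Skint9 5.29 ± 0.35, Serpinb12 5.24 ± 0.28 and Orm1 5.23 ± 0.39 from basal cells. All of these were still lower than in spinous cells, by 1.59 (Serpinb12) to 2.68 (Dkkl1) on the log2 scale. Members of near-identical families such as Skint and Serpinb can share reads, so the level of a single one is uncertain.

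By the same limit the genes furthest below basal cells were Krt17, a keratin of hair follicles and stressed skin, Il1r2, the decoy receptor of interleukin 1, Serpinh1, a chaperone of collagen, Cxcl14, a skin chemokine, and Sparc, a matrix glycoprotein. Il1r2 was at 12.006, 60.5 and 27.4 CPM in members against 157, 244 and 144 in basal cells, with no overlap, and 2.39, 4.89 and 1.31 in spinous cells. Its log2 difference from basal cells was -2.37 ± 0.18 (adjusted p = 4.45e-10 by edgeR). Serpinh1 stood at -2.28 ± 0.25, Cxcl14 at -2.27 ± 0.19 and Sparc at -2.26 ± 0.21. The members held 2 Krt17 UMIs, and the basal level was 110.7 times theirs with a counting interval of 30.6 to 915.

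Furthest below spinous cells, with 50 CPM or more in members or spinous cells, was Klk7, a protease that loosens corneocytes, at 0, 16.2 and 19.2 CPM in members and 363, 427 and 389 in spinous cells (log2 difference -4.79 ± 0.24, adjusted p = 5.24e-13 by edgeR). Flg, the filaggrin precursor of the granular layer, differed by -4.61 ± 0.36, the protease inhibitor Serpina12 by -4.39 ± 0.39, the suprabasal keratin Krt77 by -4.34 ± 0.23 and Wfdc21 by -4.23 ± 0.35. Flg, Serpina12 and Wfdc21 did not pass the test against basal cells. Furthest above spinous cells by the same limit was Thy1, a surface glycoprotein found on T cells and on basal keratinocytes of mice, at 40.8, 127 and 70.3 CPM in members, 276, 227 and 252 in basal cells and 3.66, 2.87 and 2.35 in spinous cells. The log2 difference of Thy1 from spinous cells was 4.84 ± 0.29, and the T cell genes Cd3e, Cd3d and Cd3g were at 0 in the members. The Notch ligand Jag2 followed with 4.31 ± 0.24, the matrix protein Postn with 4.20 ± 0.14, the basal keratin Krt15 with 3.81 ± 0.22 and the matrix protein Thbs1 with 3.66 ± 0.20.

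**Figure D3:**
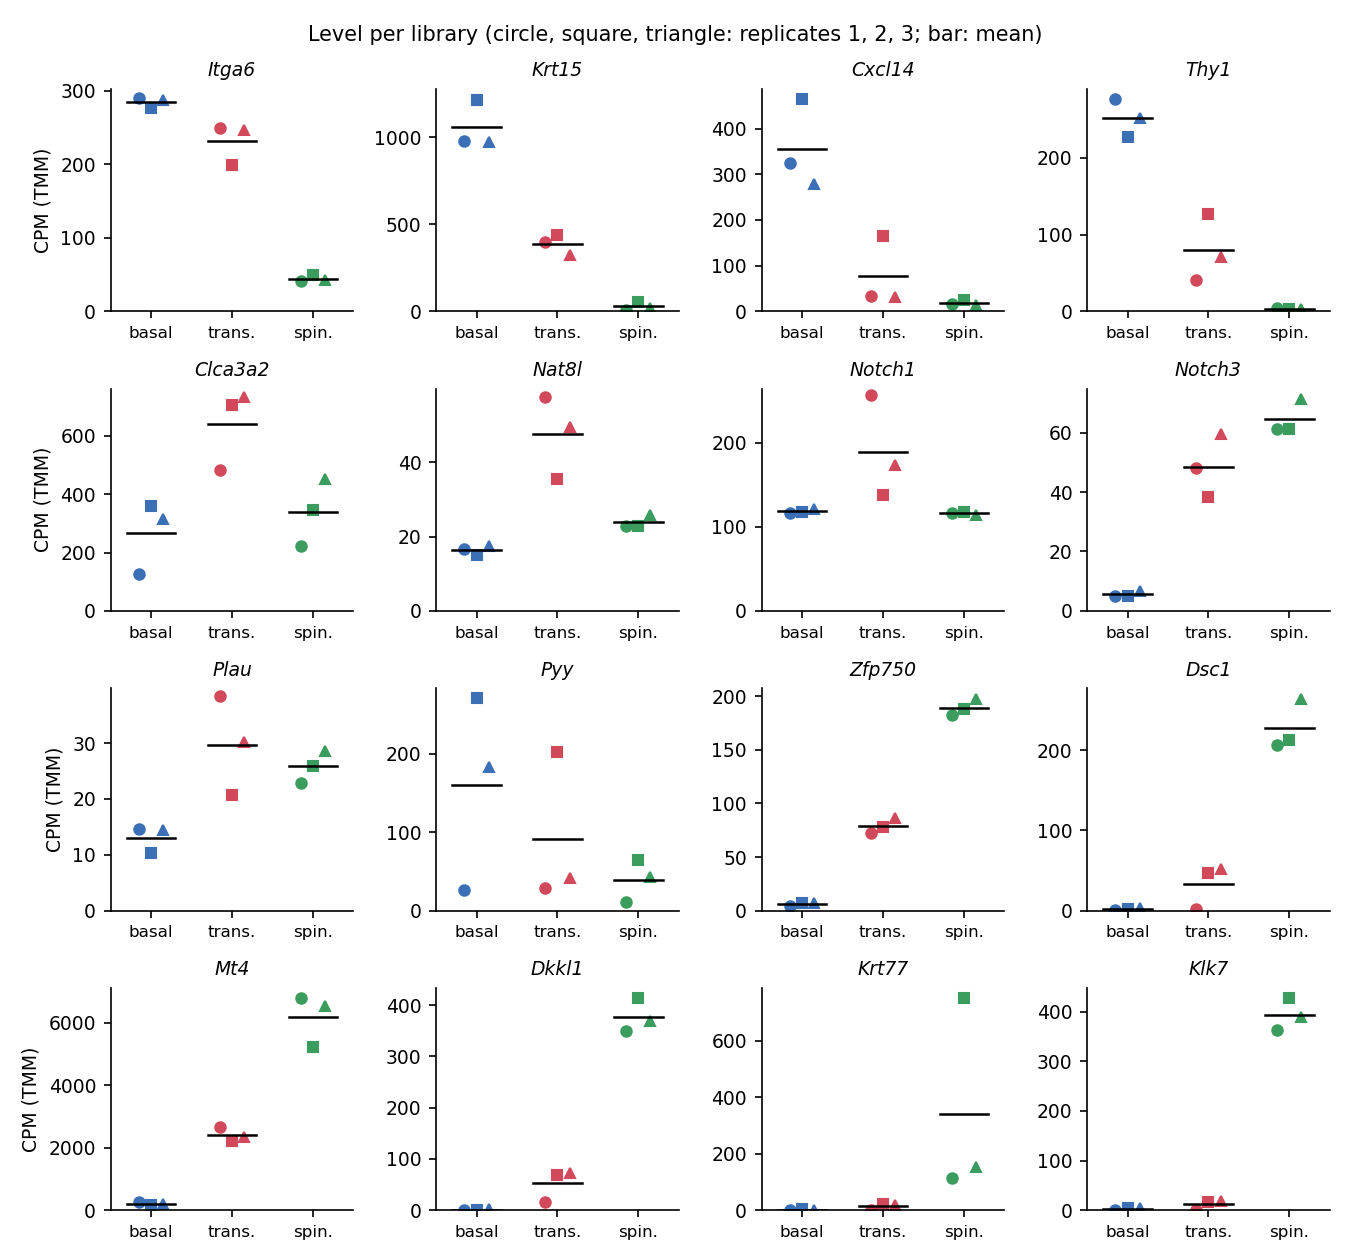
Level of 16 genes in basal, transitional and spinous cells, in TMM-scaled CPM on linear axes from 0; circles, squares and triangles are replicates 1, 2 and 3 and bars their means. Krt15 and Thy1 are highest in basal cells and Zfp750 and Dkkl1 in spinous cells, while Clca3a2 and Nat8l are highest in the transitional cells.

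The position of the members between their neighbours was measured on the linear scale for 786 genes that differed between basal and spinous cells by at least 4-fold with 20 CPM or more. At 0% the members have the basal level and at 100% the spinous level. The 495 genes higher in spinous cells stood at a median of 22.0% (10.8, 26.8 and 26.5% in replicates 1 to 3), and the 291 genes lower in spinous cells at 58.4% (63.3, 58.4 and 57.0%). On this linear scale the members were thus further from the basal level for basal genes than for spinous genes in each library. Positions on the log2 scale were not measured, and the order can differ there. Dkkl1, at 13.8%, had mean levels of 1.01, 53.1 and 378 CPM in basal cells, members and spinous cells. Thy1, at 69.3%, had 252, 79.4 and 2.96 CPM. Of the 495 genes 493 lay between the neighbours, and of the 291 genes 287 did. On plain totals the medians were 28.8 and 56.6%. Without Scrublet-marked cells, also on plain totals, they were 25.9 and 55.4%. In the 67 members with no more UMIs than the median basal cell they were 21.8 and 48.1% on plain totals. Both pairs are to be read against 28.8 and 56.6%, not against the TMM medians. The part of doublets or free RNA in these positions was not tested.

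Of the 495 genes higher in spinous cells, Notch3, a Notch receptor, stood highest at 72.8%, followed by Foxn1, a transcription factor that promotes keratinocyte differentiation, at 71.6%. Jup, the desmosomal plaque protein plakoglobin, stood at 58.9%. At the other end Egr2, an immediate early transcription factor, stood at -9.87% and Flg at -1.34%. Among the 291 basal genes, Mmp3, a matrix protease, stood at -7.57%, slightly beyond the basal level. Beyond the spinous level were 3 of them, Krt79, a keratin of the upper hair follicle, at 127.4%, Krt17 at 117.2% and Sostdc1, an inhibitor of Wnt and BMP signals, at 100.9%. The members held 0 UMIs of Krt79 and 2 of Krt17. Foxn1, Jup, Krt79 and Sostdc1 were chosen after their values were seen.

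**Figure D4:**
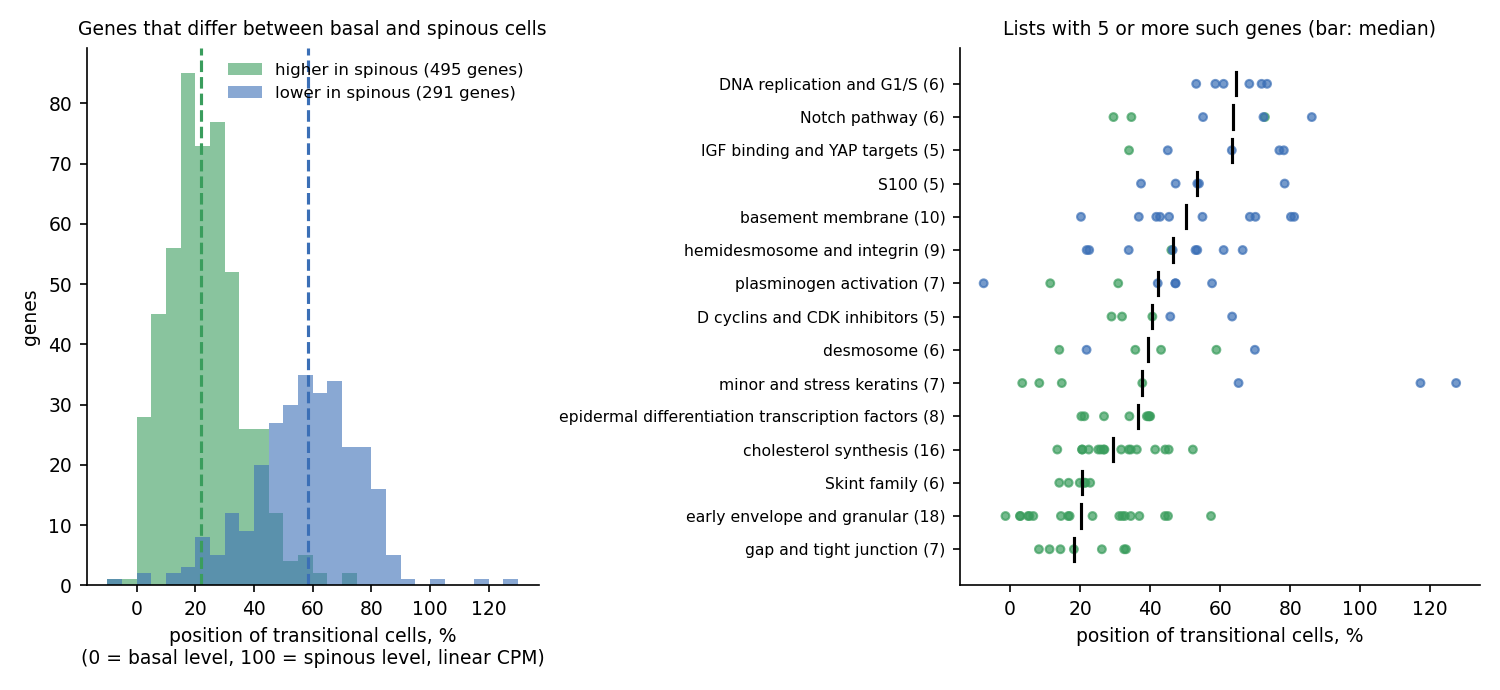
Left, number of genes by the position of transitional cells in percent, from 0 (basal level) to 100 (spinous level), for the 495 genes higher and the 291 genes lower in spinous cells, with medians of 22.0 and 58.4% as dashed lines. Right, the same position for genes of the lists with 5 or more such genes, green where higher and blue where lower in spinous cells, with list medians as bars.

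In the Notch pathway the receptors Notch1, Notch2 and Notch3 were higher and the ligands Jag2 and Dll1 lower than in basal cells. Of 17 genes tested 5 were higher and 3 lower than in basal cells, with a median log2 difference of 0.28, and 6 were higher and 6 lower than in spinous cells, which turned to 8 and 2 on plain totals. Notch3 was at 48.0, 38.4 and 59.4 CPM in members against 5.15, 4.98 and 6.76 in basal cells and 61.3, 61.2 and 71.5 in spinous cells. The members did not overlap the basal libraries, and the log2 difference was 3.11 ± 0.20 (adjusted p = 4.92e-11 by edgeR). The difference of Notch3 from spinous cells, -0.40 ± 0.14 (adjusted p = 0.0337), was lost in 10 of 16 alternatives, without replicate 1, 2 or 3 among them (adjusted p = 0.111, 0.232 and 0.113). Notch2, another receptor, differed from basal cells by 1.76 ± 0.28 and from spinous cells by -1.13 ± 0.20. Notch1 was at 257, 137 and 174 CPM in members, 116, 118 and 121 in basal cells and 117, 117 and 114 in spinous cells. Notch1 was above every library of both classes, and each single comparison passed, with log2 differences of 0.61 ± 0.12 and 0.64 ± 0.12. The test of being above both classes gave an adjusted p of 0.104 for Notch1, which missed the threshold. The ligands Jag2 and Dll1 went the other way, and 9 of the 17 genes of the list did not pass against basal cells. Jag2 was at 55.2, 36.9 and 73.1 CPM in members, between 127, 102 and 129 in basal cells and 2.39, 3.26 and 2.72 in spinous cells. Dll1 differed by -1.34 ± 0.22 from basal cells and by 1.81 ± 0.30 from spinous cells. Lfng, a glycosyltransferase that modifies Notch receptors, differed by -2.64 ± 0.38 from basal cells.

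Genes of attachment to the basement membrane were mostly lower than in basal cells and mostly higher than in spinous cells. In the hemidesmosome and integrin list 13 of 18 genes were lower and 1 higher than in basal cells (median log2 difference -0.71), and 13 were higher and 1 lower than in spinous cells (median 1.62). Itga3, the integrin chain that pairs with Itgb1 to bind laminin, was at 40.8, 29.5 and 22.8 CPM in members against 82.0, 76.4 and 75.9 in basal cells and 0.318, 2.01 and 0.564 in spinous cells. Itgb4, the hemidesmosome integrin, differed by -0.95 ± 0.12 from basal cells, and its partner Itga6 by -0.30 ± 0.10 (adjusted p = 0.037), a call lost in 8 of 16 alternatives, among them leaving out replicate 1, 2 or 3 (adjusted p = 0.0572, 0.175 and 0.103). Col17a1, the transmembrane collagen of hemidesmosomes, differed by -0.31 ± 0.08 (adjusted p = 0.00746 by edgeR, and 0.0937 without replicate 3). Without replicate 3 the list had 6 genes lower than in basal cells. On the way from the basal to the spinous level Itga3 stood at 61.0% and Itga6 at 21.9%. The exception above basal cells was Itgb5, an integrin chain of vitronectin receptors, with 1.61 ± 0.21. Of 14 basement membrane genes 9 were lower and 0 higher than in basal cells (median -0.86), and 13 were higher and 0 lower than in spinous cells. Lamb3, a chain of laminin 332, differed by -1.49 ± 0.18, and Npnt, an integrin ligand, by -1.69 ± 0.31.

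Genes of junctions between keratinocytes were mostly higher than in basal cells. Of 13 desmosome genes 10 were higher and 1 lower than in basal cells (median 1.04), and 2 were higher and 8 lower than in spinous cells (median -0.76). Dsg1a, a suprabasal desmoglein, was at 459, 527 and 606 CPM in members against 115, 119 and 106 in basal cells and 1198, 1211 and 1432 in spinous cells. Dsc1, a late desmocollin, was uneven, with 2.40, 47.3 and 51.2 CPM in members, 0.859, 1.61 and 3.38 in basal cells and 206, 212 and 264 in spinous cells. Replicate 1, with 30 members, held the low value. The gene lower than in basal cells was Dsg2, a desmoglein of basal and simple epithelia, with -1.63 ± 0.25. Of 16 gap and tight junction genes 11 were higher and 0 lower than in basal cells (median 0.99; 6 higher without replicate 3), and 10 were lower than in spinous cells and 0 higher (median -1.07). Cldn4, a claudin, differed from basal cells by 4.39 ± 0.39 and from spinous cells by -2.87 ± 0.19.

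Among 49 transcription factors of epidermal differentiation 21 were higher and 9 lower than in basal cells (median 0.17). Against spinous cells 5 were higher and 24 lower, which turned to 16 and 17 on plain totals. Zfp750, which drives terminal differentiation, was at 72.0, 78.3 and 86.8 CPM in members against 3.86, 7.23 and 7.33 in basal cells and 182, 188 and 198 in spinous cells. The 3 classes did not overlap, and the difference of Zfp750 from basal cells was 3.65 ± 0.19. Grhl3, a grainyhead factor of barrier formation, differed by 3.30 ± 0.25 and Ovol1, which restrains proliferation, by 2.65 ± 0.22. Foxn1 was at 36.0, 14.8 and 31.1 CPM in members against 1.07, 1.93 and 2.54 in basal cells, a log2 difference of 3.77 ± 0.35, and its difference from spinous cells of -0.49 ± 0.22 did not pass (adjusted p = 0.0887 by edgeR). Trp63, the master factor of stratified epithelia, was at 324, 371 and 280 CPM in members, between 396, 430 and 346 in basal cells and 222, 254 and 247 in spinous cells. The basal difference of Trp63, -0.28 ± 0.09 (adjusted p = 0.0369), was lost in 9 of 16 alternatives, without replicate 1, 2 or 3 among them (adjusted p = 0.101, 0.0738 and 0.204). Without replicate 2 the list had 5 genes lower than in basal cells.

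Genes of DNA replication were lower than in basal cells or did not pass. Since the rule removed cells with 5 or more mitotic UMIs from all 3 classes, these values speak of cells outside mitosis. Of 39 DNA replication genes 16 were lower and 0 higher than in basal cells (median -0.99), and 16 were higher and 0 lower than in spinous cells. Lower than in basal cells were 10 without replicate 1 and 2 without replicate 3, and higher than in spinous cells 9 without replicate 2 or 3. Dut, which guards the nucleotide pool, was at 12.006, 22.1 and 12.8 CPM in members, 39.5, 35.5 and 61.4 in basal cells and 2.55, 1.1497 and 1.78 in spinous cells. Without replicate 3 the adjusted p of Dut against basal cells was 0.0589 by edgeR. Of 14 D cyclins and inhibitors 4 (28.6%) were higher and 2 (14.3%) lower than in basal cells, against 10.9 and 8.5% of all genes tested. Ccnd2, a D cyclin, was at 262, 251.03 and 399 CPM in members against 721, 727 and 810 in basal cells and 36.8, 50.2 and 48.6 in spinous cells, and Ccnd1, another, differed from basal cells by -0.79 ± 0.11. The inhibitors of cyclin-dependent kinases were higher, with Cdkn1a (p21) at a log2 difference of 1.94 ± 0.12 and Cdkn2b (p15) at 4.66 ± 0.36 from basal cells. Cdkn2b was at 12.006, 48.7 and 36.5 CPM in members against 0.859, 1.28 and 1.83 in basal cells and 104, 101 and 91.3 in spinous cells.

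Envelope and cholesterol genes were mostly higher than in basal cells and lower than in spinous cells. Of 26 early envelope and granular genes 20 were higher and 2 lower than in basal cells (median 1.41), and 22 were lower and 0 higher than in spinous cells (median -1.46). Sbsn, suprabasin, was at 509, 1558 and 1571 CPM in members against 74.1, 79.8 and 89.0 in basal cells and 6644, 7478 and 6595 in spinous cells. Of 24 genes of cholesterol synthesis 21 were higher and 0 lower than in basal cells (median 1.69), and all 24 were lower than in spinous cells (21 on plain totals). Sqle, squalene epoxidase, was at 31.2, 19.2 and 43.9 CPM in members against 4.51, 1.61 and 4.37 in basal cells and 107, 98.7 and 128 in spinous cells. Of the 10 Skint genes tested 7 were higher than in basal cells, the same number lower than in spinous cells. Mt4, the metallothionein of stratified epithelia, was at 2658, 2219 and 2355 CPM in members against 259, 173 and 195 in basal cells and 6784, 5212 and 6528 in spinous cells. Its difference from basal cells was 3.54 ± 0.08 (adjusted p = 2.97e-19 by edgeR). Mt2, which is widely expressed, went the other way, by -0.36 ± 0.09 from basal cells (adjusted p = 0.148 without replicate 2, by edgeR) and 1.72 ± 0.10 from spinous cells.

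Several secreted and calcium-binding proteins of basal cells were lower. Of 10 S100 genes 5 were lower and 3 higher than in basal cells, and of 14 genes of the list of IGF binding proteins and YAP targets 8 were lower and 1 higher (5 lower without replicate 2 and 0 higher without replicate 3). S100a6, of the S100 family, was at 1892, 1452 and 1949.5 CPM in members against 3783, 2858 and 4107 in basal cells and 175, 134 and 238 in spinous cells. Igfbp7, a secreted protein that binds insulin-like growth factors, differed from basal cells by -1.90 ± 0.19 and Ccl27a, a chemokine that attracts skin T cells, by -1.68 ± 0.19. Of 17 TGF beta and BMP genes 6 were lower and 0 higher than in basal cells (2 lower without replicate 3). Bmp4, a bone morphogenetic protein, differed by -1.08 ± 0.28 from basal cells and by 2.49 ± 0.40 from spinous cells, and the first call was lost without replicate 2 or 3 (adjusted p = 0.0675 and 0.0589). Of 22 AP-1 and immediate early genes 3 were higher and 3 lower than in basal cells (13.6% each). These shares are near those of all genes tested, 10.9 and 8.5%. Against spinous cells 1 gene of the list was higher and 15 were lower (1 and 9 on plain totals). Without replicate 3, 12 of them were lower and 0 higher than in basal cells, and without replicate 1 or 2 only 1 was lower, so their balance rests on single libraries. Of 15 heat shock genes 4 were higher and 4 lower than in basal cells, and 3 were higher and 5 lower than in spinous cells (6 and 2 on plain totals). Without replicate 3, 1 heat shock gene was higher and 2 were lower than in basal cells.

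The remaining lists moved less evenly against basal cells. In the Wnt list 3 of 23 genes were higher and 7 lower, and in that of plasminogen activation 3 of 14, with the marker Plau among them, were higher and 7 lower. Without replicate 3 the Wnt list had 1 higher gene, and without replicate 1 the plasminogen list had 5. Of 11 epidermal chemokines and cytokines 2 were higher and 4 lower, of 11 minor and stress keratins 6 were higher and 4 lower, and of 9 EGF family genes 3 were higher and 0 lower. Without replicate 2, 1 of the chemokines and cytokines was higher and 2 were lower, and without replicate 3, 1 was higher. Of the 8 calcium-activated chloride channel regulators tested 5 were higher than in basal cells and 0 lower (3 higher without replicate 2 or 3). Beside the marker Clca3a2 they included Ano1, a calcium-activated chloride channel, with a log2 difference of 1.10 ± 0.17, and Clca2 with 0.85 ± 0.15. Of 30 oxidative phosphorylation genes 1 was higher and 8 (26.7%) were lower, with a median of -0.18, and of 17 glycolysis genes 1 was higher and 4 (23.5%) were lower, with a median of -0.20, where 8.5% of all genes tested were lower. Of 18 mitotic genes outside the rule 1 was higher and 7 lower (4 lower without replicate 1 and 3 without replicate 2). The rule's cut at 5 mitotic UMIs is not scaled to depth, and members had higher median UMIs than basal cells. Levels of mitotic genes can therefore follow in part from the rule. Without replicate 3, 2 oxidative phosphorylation, 2 glycolysis and 2 mitotic genes were lower and none of the 3 lists had a higher one, and 0 EGF family genes were higher.

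Genes above both neighbours numbered 2 of 10972 (0.0182%), by the larger of the 2 one-sided p-values per gene with Benjamini-Hochberg adjustment over the whole table, and 191 at an unadjusted p under 0.05. They were Clca3a2 and Nat8l. Clca3a2 was a marker picked for these cells, so its place in this count is a description and supports nothing, and Nat8l was the other gene. Clca3a2 encodes a member of the calcium-activated chloride channel regulator family and lies on the minus strand at chr3:144796559-144819494 in mm10. Clca3a2 was at 483, 704 and 732 CPM in members, 125, 359 and 315 in basal cells and 221, 346 and 452 in spinous cells. Each member library lay above every library of both classes, and the mean of the 3 member libraries was 2.40 times the basal and 1.88 times the spinous mean. Nat8l, the enzyme that makes N-acetylaspartate, lies at chr5:33995984-34005916 in mm10 and was at 57.6, 35.4 and 49.3 CPM in members, 16.7, 15.1 and 17.3 in basal cells and 22.8, 22.8 and 25.8 in spinous cells. No library overlapped, and the log2 differences of Nat8l were 1.49 ± 0.18 and 0.95 ± 0.17 (adjusted p = 0.0349 for both together, by edgeR). It rests on 102 UMIs in members, and leaving out any 1 library ended the call, with adjusted p-values of 0.508, 0.151 and 0.498. Nat8l was under the 50 CPM set for naming and is named after its value was seen.

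At 3000 UMIs per cell, drawn at random to level depth, Clca3a2 was detected in 61.6% of 159 members (exact 95% interval 53.6 to 69.2), 40.1% of 1853 basal cells and 43.4% of 2026 spinous cells. The interval pools cells of all libraries and leaves out the spread between them. In replicates 1 to 3 the shares were 60, 53.6 and 67.9% of members. They were 27.7, 46.96 and 39.1% of basal cells and 34.1, 43.8 and 47.1% of spinous cells. The gap between members and basal cells was smallest in replicate 2. Without levelling the pooled shares were 81.3, 60.1 and 67.7%, at median depths of 11307, 8383 and 15284 UMIs. Left out for low depth were 23, 196 and 68 cells. In Langerhans-type cells, which should lack the gene, 4 of 43 had a Clca3a2 UMI (9.30%, 2.59 to 22.1) at a median of 5360 UMIs. These 43 cells were all of replicates 2 and 3. Clca3a2 has near-identical relatives, so its counts may include reads of Clca3a1 or lose some to it.

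Genes below both neighbours also numbered 2 (0.0182%), Barx2 and Defb6, with 325 at an unadjusted p under 0.05. Barx2, a homeobox factor at chr9:31846044-31913462, was at 7.20, 2.95 and 6.39 CPM in members, 16.5, 20.4 and 21.8 in basal cells and 26.6, 31.8 and 29.7 in spinous cells. Barx2 did not overlap between members and either class, from 12 UMIs in members, and its adjusted p was 0.0307. Defb6, a beta-defensin at chr8:19225478-19228209, was at 0, 0 and 8.22 CPM in members, 7.73, 27.3 and 89.6 in basal cells and 32.5, 19.4 and 94.1 in spinous cells, from 9 UMIs, with an adjusted p of 0.0307. Replicate 3 of the members lay within the basal range of Defb6. The calls of both genes were lost with DESeq2 (adjusted p = 0.0956 for each). The edgeR call of Barx2 was also lost without replicate 2 or 3 (adjusted p = 0.131 and 0.393), and that of Defb6 without replicate 3 (adjusted p = 1). Replicate 3 holds all Defb6 UMIs of the members, and both genes were named after their values were seen.

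Markers of other cell types moved with some of these genes. The 12 follicle bulge markers summed to 618 to 691 CPM in members, 1422 to 1700 in basal cells and 33.7 to 68.5 in spinous cells, on plain totals. In the members Cd34, Lgr5, Lhx2, Cd200, Krt75 and Gli1 were at 0, and all 9 bulge markers tested were lower than in basal cells (5 without replicate 2, 3 without replicate 3). Of the 13 markers of upper follicle and sebocytes, summing to 268 to 432 CPM in members, 342 to 746 in basal cells and 1069 to 1151 in spinous cells, Krt79, Elovl3 and Cidea were at 0 in members. Most of the bulge sum came from Krt15 and Postn, and Krt15 is also a keratin of basal keratinocytes. The other 10 markers summed to 13.2 to 61.0 CPM in members, 132 to 161 in basal cells and 14.5 to 19.8 in spinous cells. The upper follicle sums of members and basal cells overlapped. Cst6, a gene of that list, had TMM-scaled means of 201, 238 and 1047 CPM in basal cells, members and spinous cells. It thus weighed heavily in these sums, which do not measure the number of follicle cells. The part of follicle cells in the low Krt17, Defb6, Sostdc1 and Barx2 of the members was not tested. Of the 12 granular markers the members held 10.6 to 148 CPM against 523 to 872 in spinous cells. Of the 12 Langerhans markers only 2, Cd207 and Ctss, were at 0 in the members. The list summed to 109 to 195 CPM in members, 115 to 162 in basal cells and 137 to 201 in spinous cells. All 9 Merkel cell and all 10 fibroblast and endothelial markers were at 0 in the members. Of the 8 melanocyte markers 6 were at 0.

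Members also differed among themselves along the keratins. They were divided by the basal pair's share of the 4 keratins at 60 and 40%, which put 65, 74 and 43 cells in 3 steps, and basal and spinous cells were divided by their share of the other pair into 3 steps on each side. Levels in these 9 steps are on plain totals and have no test, and the divisions were chosen after seeing the data. Clca3a2 was at 240.3 ± 109 CPM in basal cells with under 0.05% Krt1 and Krt10, at 584 ± 319 in basal cells at 0.25 to 0.5%, and at 1133 ± 408 in members with the most basal keratin (SD, n = 3 libraries). It was at 606 ± 153 and 438 ± 57.5 in the other two member steps and at 269.98 ± 84.0 in spinous cells with under 0.05% Krt5 and Krt14. The first member step was the highest of the 9 in replicates 1 to 3, at 823, 981 and 1595 CPM. Notch1 had its highest mean in the same step, 262 ± 114 CPM, against 107 ± 9.40 at the basal and 95.6 ± 3.46 at the spinous end, with a spread that reaches the next steps. Notch3 was at 2.12 ± 0.719 CPM at the basal end, 36.3 ± 7.63 in the basal step before the members and 53.9 ± 2.26 in the first member step, against 54.6 ± 4.83 at the spinous end.

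Other genes stood at different levels along the steps. Cxcl14 was at 446 CPM at the basal end and at 115.5 in the last basal step, before the members. Itga6 was at 301 CPM at the basal end and 376 in the first member step, its highest mean of the 9, where the libraries ran from 244 to 444, and at 169 in the third. Jag2 was at 129, 144 and 98.9 CPM in the 3 basal steps, 102.5 in the first member step and 32.6 in the third. In each library Jag2 was lower in the third member step than in every basal step. Dsc1 was at 6.20, 34.2 and 70.1 CPM in the 3 member steps and Dkkl1 at 12.1, 43.2 and 117, against 200 and 337 at the spinous end. Klk7 was at 27.3 CPM in the third member step and 349 at the spinous end. In each library Klk7 was lower in that step than at the spinous end. Pyy varied more between libraries than between steps, with 11.3, 488 and 57.5 CPM in the first member step.

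**Figure D5:**
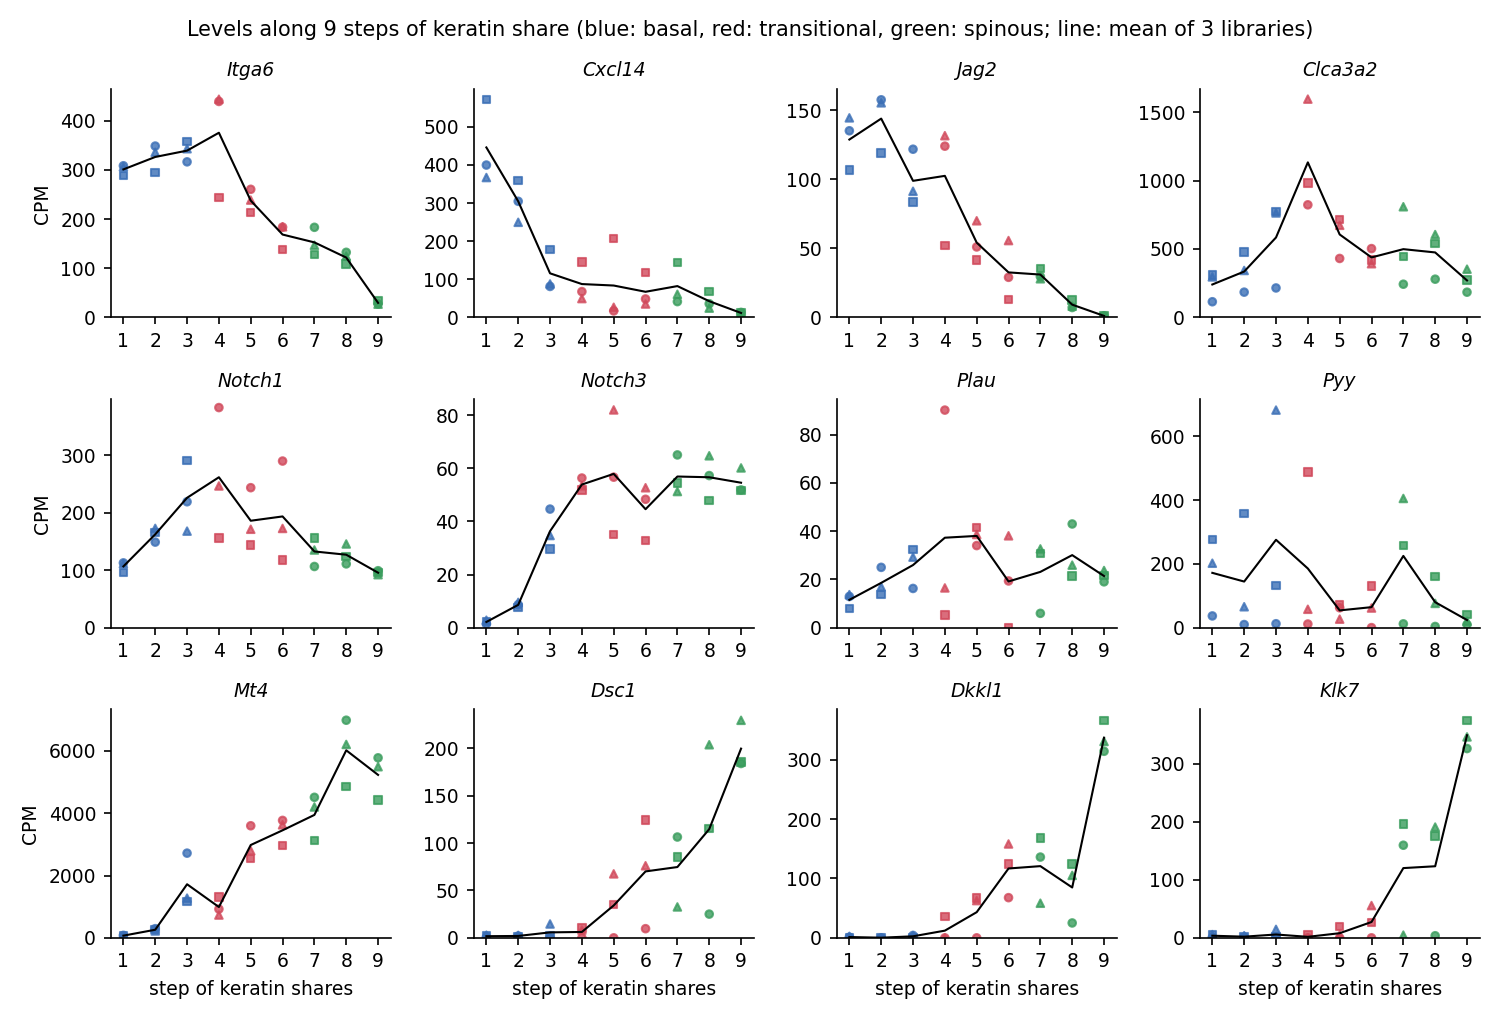
Level of 12 genes in CPM on plain totals (linear axes from 0) along 9 steps of keratin share, from basal cells with under 0.05% Krt1 and Krt10 (1) through 3 steps of transitional cells (4 to 6) to spinous cells with under 0.05% Krt5 and Krt14 (9); points are the libraries and the line their mean. Clca3a2 has its highest mean in step 4, the mean of Notch3 is 53.9 CPM in step 4 and 54.6 in step 9, and the mean of Klk7 is 27.3 CPM in step 6 and 349 in step 9.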

How the data were processed

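The 3 replicate libraries of 1 group were used as deposited, so comparisons are between cell classes within libraries. Per the submitters' processing notes, the authors used Cell Ranger 3.1.0 with genome build mm10, and the deposited values are unnormalized UMI counts of 31053 genes in 6078 cell barcodes. Their gene annotation version is not given in the labels. The members, the lists and the tests were chosen with earlier results of these data known.

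UMI counts were summed per library and class, giving 9 profiles, and fitted in 1 model with edgeR 4.0.16 (R 4.3.3), TMM scaling, the package's low-count filter and library as a block, without the 10 rule genes. A library gives all 3 classes, so the numbers pair the profiles. The deviations of members from class means correlated over 7398 genes, which are not independent replicates, with those of basal cells of the same library at r = 0.305, 0.208 and 0.304, and with those of spinous cells at 0.235, 0.224 and 0.264. The Benjamini-Hochberg adjustment ran over all genes tested. For genes above or below both classes the larger of the 2 one-sided p-values was adjusted.

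Named genes were the 5 highest and 5 lowest called genes of each comparison with a mean of 50 CPM or more in either class compared and 1 direction in all libraries, up to 4 called genes a list, up to 12 genes above and 8 below both classes, the cell type markers, and those said to be chosen later. Summed member profiles held 377546, 671589 and 1024864 UMIs. Intervals cover counting error only. Doublets were scored per library with Scrublet in scanpy 1.11.5 and kept in the classes, since the rule states no doublet filter. It marked 33 cells in all. The script was tested on simulated data. Alternatives, 14 planned and 2 added after seeing the data, included DESeq2 1.42.0. Gene positions are from GENCODE M21. Upstream sequence is not reported here.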

Additional observations from a re-analysis of the deposited data

How the results depend on the processing

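Genes that differed from basal cells numbered 2134, and 1275 with a keratin threshold of 1% in all classes, 1014 with only the 67 members that had no more UMIs than the median basal cell, and 1047 to 1775 without 1 replicate. Genes that differed from spinous cells numbered 3752, against 2092 and 1964 under the first pair of settings and 2414 to 3102 without 1 replicate. Each of these 3 settings leaves fewer member cells. Without the replicate block, that is with library left out of the model, 1722 and 3332 genes differed, and 0 genes were above or below both classes.

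The 2 genes above both classes became 5 on total UMIs, 6 without the low-count filter, 7 at the keratin threshold of 1%, 8 with members of low UMI total, 1 with cells of at least 5000 UMIs, and 0 with members of 25 to 75% basal keratin or with mitochondrial shares of at most 5%, and 1 to 2 without 1 replicate. The 2 genes below both became 18 without the low-count filter, 87 at the threshold of 1%, 214 with members of low UMI total, 1 without Scrublet-marked cells or with mitochondrial shares of at most 5%, 0 with DESeq2, with members of 25 to 75% basal keratin or with cells of at least 5000 UMIs, and 3 to 19 without 1 replicate. The cause was not tested. Both counts are therefore lists of candidates by 1 setting.

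The mean share of members was 0.794% at the threshold of 1%, and the shares of basal and spinous cells were then 35.3 and 31.3%. At a mitochondrial share of at most 5% basal cells made up 30.3% and spinous cells 45.96%, and with at least 5000 UMIs spinous cells made up 41.7%.

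Of the named genes other than the markers Clca3a2, Plau and Pyy, 60 differed from basal cells, and 34 of them did so with the same direction under all 16 alternatives. Of 60 that differed from spinous cells 49 did. With members of low UMI total the log2 difference changed sign for Col17a1 against basal cells (0.12) and, against spinous cells, for Notch3 (0.094) and Pyy (-0.12). At the keratin threshold of 1%, with 39 members, it did for Barx2 against basal cells (0.12) and Lfng against spinous cells (-3.54). Pyy is given without a test, and none of the other 4 passed it there. Depth limits genes under about 10 CPM, which rest on few UMIs in the 30 members of replicate 1.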
